A study of Mus musculus with 16 samples.

Results

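Of 52636 genes counted by RNA sequencing in cultured mouse islets, 10 encode the proteins described here: 7 digestive enzymes that pancreatic acinar cells secrete (Prss2, Ctrb1, Cela2a, Cela3b, Cpa1, Cpb1 and Pnlip) and 3 REG proteins (Reg1, Reg2 and Reg3b). They were chosen by name, as the rows whose Ensembl identifier carries these symbols in GENCODE M21, and 10 of 10 were found. The islets came from 12 week-old male C57BL/6JRj mice by the labels, while the methods of the study name the substrain C57BL/6NRj. Each condition had 500 islets, pooled from more than 1 mouse and kept for 10 days in RPMI 1640 with 2% human serum, with the medium renewed on day 5. The 4 conditions were no addition (control), IL-1β at 50 pg/mL, sodium butyrate at 0.2 mM, and both together, with 4 libraries each, which the study describes as independent experiments. A library is therefore a pool of islets and not a mouse.

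Acinar cells make up most of the exocrine pancreas. They store digestive proenzymes in zymogen granules and release them into the duct. In the gut trypsin, once activated, activates the others. Islets are freed from this tissue by enzyme digestion, and acinar cells that stay attached are a familiar admixture of islet preparations. The REG proteins are small secreted proteins with a C-type lectin fold that acinar cells also make. Reg1 was found in regenerating islets, members of the REG3 group bind bacteria, and inflammatory signals through STAT3 are known to raise REG genes in the pancreas and gut. EXTL3 has been proposed as a receptor for them.

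These transcripts were scarce. The libraries had 18635943 to 25955943 counts in genes, and the 7 enzymes together took 13 to 345 of them per library and the 3 REG genes 1 to 93. Levels are given as CPM, in which the counts are brought to a common library size with edgeR's TMM factors, and 3 counts, taken as the floor of detection, corresponded to 0.108 to 0.156 CPM depending on the library. The tissue label was borne out by 9 beta cell markers such as the insulin genes, whose summed CPM was between 138000 and 262000. Ptf1a, which drives acinar identity, had at most 1 count in any library. RNA of acinar cells in the cultures and transcription of these genes in islet cells cannot be told apart in such libraries, and neither can fewer cells of a type and less RNA per cell.

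The REG genes lie next to each other on chromosome 6 (GRCm38), Reg3b (ENSMUSG00000071356) at chr6:78370657-78373466, Reg2 (ENSMUSG00000023140) at chr6:78395623-78408106 and Reg1 (ENSMUSG00000059654) at chr6:78422711-78428667, all on the plus strand. The same chromosome holds Cpa1 (ENSMUSG00000054446, chr6:30639218-30645363, plus strand) and Prss2 (ENSMUSG00000057163, chr6:41521787-41525079, plus strand). Cela3b (ENSMUSG00000023433, chr4:137420999-137430540) and Cela2a (ENSMUSG00000058579, chr4:141814962-141826160) are both on the minus strand of chromosome 4. The others are Cpb1 (ENSMUSG00000011463, chr3:20248264-20275733, minus strand), Ctrb1 (ENSMUSG00000031957, chr8:111686519-111691010, minus strand) and Pnlip (ENSMUSG00000046008, chr19:58652498-58681788, plus strand).

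The 150 bases before the RefSeq start are shown for the 3 REG genes and for Pnlip, an enzyme gene called in no comparison. They come from the RefSeq promoter windows of GRCm38.p6, which held 10 of the 10 genes, and each is written in the direction of transcription. For Reg2 and Prss2 the first transcribed bases of the window were not found in the gene's GENCODE M21 transcripts. All stretches shown lie within the GENCODE gene spans given above, which begin further upstream. Capitals mark TATAAA, the letters of a TATA box, and in Reg3b also TTCNNNGAA, the letters bound by STAT factors.
Reg1, chr6:78425833-78425982, plus strand: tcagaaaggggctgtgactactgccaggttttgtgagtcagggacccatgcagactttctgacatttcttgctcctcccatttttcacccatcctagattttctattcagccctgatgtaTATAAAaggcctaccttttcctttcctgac
Reg2, chr6:78405005-78405154, plus strand: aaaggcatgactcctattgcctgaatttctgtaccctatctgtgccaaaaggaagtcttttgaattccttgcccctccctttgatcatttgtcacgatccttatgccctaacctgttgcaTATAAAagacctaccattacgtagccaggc
Reg3b, chr6:78370735-78370884, plus strand: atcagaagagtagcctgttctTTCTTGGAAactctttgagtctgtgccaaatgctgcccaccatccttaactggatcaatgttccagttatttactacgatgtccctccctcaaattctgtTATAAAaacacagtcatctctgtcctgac
Pnlip, chr19:58670215-58670364, plus strand: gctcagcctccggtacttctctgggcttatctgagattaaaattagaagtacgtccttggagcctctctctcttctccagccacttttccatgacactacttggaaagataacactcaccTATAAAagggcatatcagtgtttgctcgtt

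The 4 sequences shared a TATAAA whose first base lay 30 bases before the start in Reg1, Reg2 and Pnlip and 29 bases before it in Reg3b. Over the whole window, which runs from 250 bases before to 50 bases after the start, and on either strand, TATAAA occurred in 6 of the 10 genes (3 of the 3 REG genes and 3 of the 7 enzymes) and in 13.6% of 32851 windows of the genome. The STAT letters TTCNNNGAA were found in Prss2 and Reg3b and in 8.3% of all windows. CACCTG, an E-box of the kind bound by PTF1A, was in 6 of 10 members and 20.2% of all windows, and TTTCCCA, the box of its RBPJ partner, in 5 of 10 and 8.06%. These are matches of letters and no evidence of binding.

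Per kilobase of exon and averaged over the 16 libraries, Ctrb1 had the highest level at 2.39 CPM, followed by Prss2 at 0.873, Reg1 at 0.609 and Cpa1 at 0.263 CPM per kilobase. Reg3b at 0.241, Reg2 at 0.205 and Cpb1 at 0.174 came next, and Cela3b at 0.121, Cela2a at 0.0967 and Pnlip at 0.0844 were lowest. For neighbours in this order other than Ctrb1 the SD between libraries of a condition was often as large as the level itself, so the order below Ctrb1 is a description. The table gives reads to whole genes, and some members share sequence with relatives. Of the 50-base stretches of the transcripts of Cela3b, 19.2% also occur in Cela3a, 15.6% of those of Cela2a occur in the overlapping gene Ctrc or in Casp9, 11.3% of those of Reg2 and 7.8% of those of Prss2 occur elsewhere, in Prss2 mostly in other trypsinogens. The values of these 4 genes are uncertain to that extent.

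**Figure D1:**
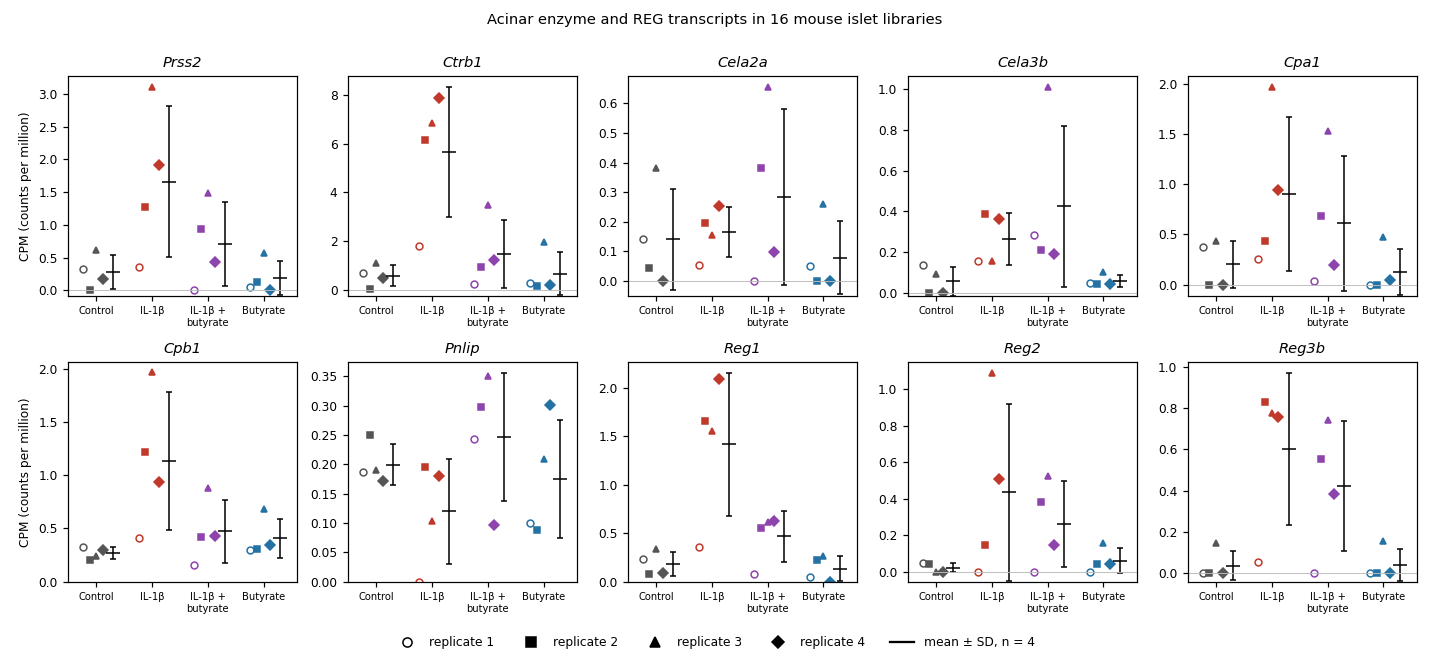
CPM of each transcript (vertical axis, 1 panel per gene, linear scales that differ) in the 4 libraries of each condition, with the replicate number as the symbol and mean ± SD beside the points. In the IL-1β condition replicate 1, the open circle, is the lowest library for 10 of the 10 genes, level with replicate 3 for Cela3b at 0.155 CPM. Ctrb1 reaches the highest level of the set at 7.87 CPM.

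The first comparison asked how IL-1β alone altered these transcripts. Reg1, Ctrb1 and Cpb1 rose with IL-1β, by 2.98, 3.31 and 2.05 on the log2 scale, and no member fell. In edgeR's quasi-likelihood test with Benjamini-Hochberg adjustment over all 18587 genes tested, and a threshold of 0.01, these were 3 of the 6 members that passed the filter on low counts. Of all genes tested, 17.8% were called, 11.2% as higher. DESeq2 also called 3 members, where it called 15.6% of all genes, and 5 of the 6 had an unadjusted p under 0.05 in edgeR. Over all 10 members, fitted without the filter on low counts, the median log2 fold change was 2.42, against 0 over the 42076 genes of that fit. Cpa1, Prss2 and Reg3b were tested and not called, and Cela2a, Cela3b, Pnlip and Reg2 did not pass the filter. A gene near the floor in every condition but 1 could pass only by being high there.

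Prss2 encodes trypsinogen 2, the proenzyme of a trypsin. Its CPM in control replicates 1 to 4 was 0.327, 0, 0.621 and 0.171, and with IL-1β it was 0.362, 1.27, 3.11 and 1.91. Replicates 2, 3 and 4 with IL-1β lay above the highest control library and replicate 1 lay within the control range. The log2 fold change was 2.61 (SE 0.95, adjusted p = 0.0625) and was not called.

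Ctrb1 encodes chymotrypsinogen B1, the proenzyme of a chymotrypsin. Control libraries held 15, 1, 23 and 12 counts, which is 0.7, 0.0417, 1.1 and 0.514 CPM. With IL-1β there were 35, 126, 132 and 218 counts, or 1.81, 6.13, 6.84 and 7.87 CPM. All 4 IL-1β libraries were above all 4 controls, the lowest again being replicate 1. The log2 fold change of 3.31 (SE 0.82) had an adjusted p of 0.00878, close to the threshold. Over 29 alternative settings it ranged from 2.88 to 3.79, with adjusted p from 0.0015 to 0.0993, and it was called in 14 of them.

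The pancreatic elastases Cela2a and Cela3b are serine proteases. Cela3b was counted 3, 0, 2 and 0 times in control libraries and 3, 8, 3 and 10 times with IL-1β. Fitted without the filter on low counts, over 42076 genes of which 8.52% were called and 5.61% as higher, its log2 fold change was 2.19 (SE 0.67, adjusted p = 0.013), which missed the threshold. Cela2a had 3, 1, 8 and 0 counts in controls and 1, 4, 3 and 7 with IL-1β, and the ranges overlapped throughout (log2 fold change 0.35, SE 0.63, adjusted p = 0.87).

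Carboxypeptidases A1 and B1, from Cpa1 and Cpb1, trim residues from the C-terminal end of peptides, the second of them basic residues. Cpb1 was even in controls at 0.327, 0.208, 0.239 and 0.300 CPM, and stood at 0.414, 1.22, 1.97 and 0.938 CPM with IL-1β. The groups did not overlap, although replicate 1 exceeded the highest control by less than 0.1 CPM. Its log2 fold change of 2.05 (SE 0.45, adjusted p = 0.000974) was called, as it was in 25 of 28 alternatives (adjusted p from 1.05e-07 to 0.0267). Cpa1 ranged more widely, from 0.373, 0, 0.430 and 0 CPM in controls to 0.259, 0.438, 1.97 and 0.938 CPM with IL-1β. Replicate 1 with IL-1β fell below controls 1 and 3, and the log2 fold change of 2.20 (SE 1.12, adjusted p = 0.182) was not called.

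Pnlip encodes pancreatic triacylglycerol lipase, which splits dietary fat. It was counted 4, 6, 4 and 4 times in controls and 0, 4, 2 and 5 times with IL-1β. Its values stayed near the floor in all 16 libraries, between 0 and 8 counts, and without the filter the log2 fold change was -0.64 (SE 0.61, adjusted p = 0.614).

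Reg1 was the most abundant of the REG transcripts. Control replicates 1 to 4 had 0.233, 0.0834, 0.334 and 0.0856 CPM and those with IL-1β 0.362, 1.66, 1.55 and 2.09 CPM. Replicates 2 to 4 with IL-1β stood far above the controls, while replicate 1 was only just above the highest of them. The log2 fold change of 2.98 (SE 0.60, adjusted p = 0.000936) was called in 26 of 28 alternatives (adjusted p from 7.71e-15 to 0.0284).

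Reg3b, whose product binds bacteria at epithelial surfaces, and Reg2 were almost undetected without IL-1β. The 4 control libraries held 0, 0, 3 and 0 counts of Reg3b and the IL-1β libraries 1, 17, 15 and 21. Replicate 1 with IL-1β lay below control replicate 3 and the others lay well above it. From 3 and 54 summed counts the ratio was 18.6 (exact 95% interval 6.03 to 92.9, counting error only). The fitted log2 fold change of 3.99 (SE 1.11), which depends on the prior count, had an adjusted p of 0.0128 and missed the threshold, with 2.16e-09 to 0.126 over 28 alternatives, 8 of which called it.

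Reg2 had 1, 1, 0 and 0 counts in controls and 0, 3, 21 and 14 with IL-1β. From 2 and 38 summed counts the ratio was 19.6 (exact 95% interval 5.07 to 168, counting error only), and nearly all of these counts came from replicates 3 and 4. Without the filter on low counts Cpb1, Reg1, Reg2 and Reg3b were called as higher, 4 of 10 members, with adjusted p = 3.84e-06 for Reg2 and 3.07e-07 for Reg3b. That fit called 8.52% of 42076 genes, 5.61% as higher. Ctrb1 was not called there (adjusted p = 0.0157). Reg2 passed the filter in some edgeR fits without 1 library. Its adjusted p there ran from 0.00315, without IL-1β replicate 1, to 0.0687, without control replicate 4. It was called only in the first of these and without replicate 1 of both additions (0.00773).

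**Figure D2:**
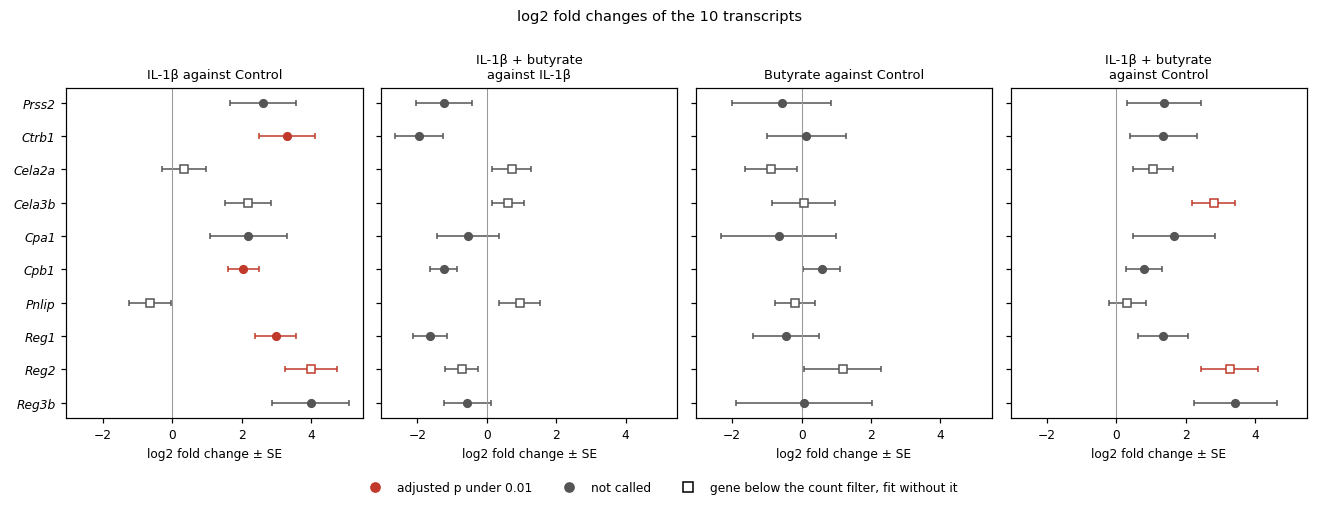
log2 fold change ± SE of the 10 transcripts (horizontal axis) in 4 comparisons. Circles are genes in the filtered fit, open squares genes below the filter from the fit without it, and red marks an adjusted p under 0.01. Red circles are seen with IL-1β against control, for Ctrb1, Cpb1 and Reg1 at 3.31, 2.05 and 2.98, and in no other panel. Red squares are Reg2 with IL-1β against control, and Cela3b and Reg2 with both additions against control, at 2.81 and 3.27.

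Counting Cela3b, with 3 counts in both replicates 1 and 3, replicate 1 with IL-1β was the lowest for 10 of the 10 transcripts. Its summed enzyme level was 3.05 CPM, against 9.83, 14.3 and 12.5 CPM in replicates 2 to 4, and 2.19, 0.542, 3.06 and 1.16 CPM in controls. The REG sum was 0.414 CPM in replicate 1 and 2.63, 3.42 and 3.36 CPM in the others. In this library Stat3 was at 337 CPM, against 324, 306 and 319 CPM, and Socs3, an inhibitor that STAT3 induces, was the lowest of the 4 at 24.5 CPM, against 29.2, 26.5 and 31.8 CPM. The sum of 6 fibroblast and stellate markers was 3.52 CPM in it and 8.14 to 8.48 CPM in the others, Spp1 was at 96.4 CPM in it, and the endothelial sum was 4.34 CPM against 4.72 to 5.70 CPM. Without this library 5 of 7 members tested were called as higher with IL-1β (Cpb1, Ctrb1, Reg1, Reg2 and Reg3b), where 17.1% of 19061 genes were called and 10.9% as higher. Since this library was the lowest for these genes, leaving it out raises the IL-1β mean. Leaving out the 4 libraries numbered 2, or the 4 numbered 4, left 0 members called by edgeR. Of all genes, 12.9% and 12.5% were then called, against 17.8% in the main fit. Adjusted p of Cpb1, Ctrb1 and Reg1 was between 0.0108 and 0.0993 in these fits. Their log2 fold changes over the 4 numbers left out in turn were 1.63 to 2.40 for Cpb1, 2.88 to 3.71 for Ctrb1 and 2.48 to 3.43 for Reg1.

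The second comparison set islets with both additions against those with IL-1β alone. Of the 6 members tested, 0 were called, against 19.5% of all genes. At an unadjusted p under 0.05 there were 3 (Cpb1, Ctrb1 and Reg1), all lower with butyrate added, and DESeq2 called 0. Over all 10 members, fitted without the filter, the median log2 fold change was -0.64, against 0.03 over the 42076 genes of that fit.

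With both additions Ctrb1 stood at 0.244, 0.934, 3.50 and 1.25 CPM in replicates 1 to 4, and 1 of these libraries, replicate 3, exceeded the lowest IL-1β library. The log2 difference from IL-1β alone was -1.96 (SE 0.70, adjusted p = 0.0506). Reg1 was at 0.0812, 0.552, 0.613 and 0.626 CPM, so that 3 of the 4 libraries lay between IL-1β replicate 1 and the other IL-1β libraries (log2 difference -1.64, SE 0.50, adjusted p = 0.0191). Both genes were lower in mean and their ranges overlapped those with IL-1β alone.

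Cpb1 had 0.162, 0.424, 0.876 and 0.433 CPM with both additions, a log2 difference of -1.25 (SE 0.40, adjusted p = 0.02). Without IL-1β replicate 1, Cpb1 (-1.52, adjusted p = 0.00184) and Reg1 (-1.96, adjusted p = 0.000539) were called as lower, where 17.2% of genes were called, 10.4% as lower. That library was the lowest with IL-1β for both genes, so leaving it out raises the IL-1β mean. Over the 16 fits without 1 library, Cpb1 was called in 2 and Reg1 in 1. Without the filter on low counts these 2 genes were called as well, where 9.3% of genes were called, 5.53% as lower.

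Prss2, with an estimate about as large as that of Cpb1 and a larger error, was at 0, 0.934, 1.49 and 0.433 CPM (log2 difference -1.23, SE 0.80, adjusted p = 0.283) and Cpa1 at 0.0406, 0.679, 1.53 and 0.193 CPM (-0.55, SE 0.90, adjusted p = 0.695). Reg3b was counted 0, 13, 17 and 8 times (-0.56, SE 0.68, adjusted p = 0.584). Of the genes below the filter, Reg2 had 0, 9, 12 and 3 counts, Cela3b 7, 5, 23 and 4, Cela2a 0, 9, 15 and 2 and Pnlip 6, 7, 8 and 2. In the unfiltered fit the estimate was -0.73 (SE 0.47) for Reg2, 0.62 (SE 0.46) for Cela3b, 0.71 (SE 0.55) for Cela2a and 0.95 (SE 0.59) for Pnlip, with adjusted p between 0.378 and 0.532.

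Against control islets, the same libraries that IL-1β alone was compared with, 0 of the 6 members tested were called with both additions, where 30.6% of all genes were. DESeq2 called 1 (Cela3b), where it called 24.4% of all genes. In edgeR 1 had an unadjusted p under 0.05. That gene was Reg3b, with a summed count ratio of 12.4 (exact 95% interval 3.93 to 62.7, counting error only) and a log2 fold change of 3.43 (SE 1.19, adjusted p = 0.0297). Without the filter, where 13.6% of genes were called, 7.29% as higher, Cela3b (2.81, SE 0.62, adjusted p = 6.3e-05), Reg2 (adjusted p = 0.000773) and Reg3b (adjusted p = 3.87e-05) were called as higher.

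No difference between butyrate alone and control was detectable for these transcripts at this depth. Of 6 members tested, 0 were called by edgeR, 0 by DESeq2 and 0 at an unadjusted p under 0.05, while 19.9% of all genes were called. Ctrb1 was at 0.301, 0.178, 1.99 and 0.215 CPM, Reg1 at 0.0502, 0.222, 0.261 and 0 CPM, and Cpb1 at 0.301, 0.311, 0.679 and 0.344 CPM. Replicate 3 was the highest library for 9 of the 10 transcripts here. The log2 fold changes were 0.14 (SE 1.14) for Ctrb1, -0.45 (SE 0.94) for Reg1 and 0.58 (SE 0.53) for Cpb1, errors that leave changes of severalfold undetectable.

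Prss2 was counted 1, 3, 11 and 0 times with butyrate alone and Cpa1 0, 0, 9 and 1 times. Reg3b had 0, 0, 3 and 0 counts, the same 4 numbers as in the controls, and Reg2 0, 1, 3 and 1. The elastases were as low, Cela3b with 1, 1, 2 and 1 counts and Cela2a with 1, 0, 5 and 0, and Pnlip had 2, 2, 4 and 7.

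IL-1β was also compared with its absence in the presence of butyrate. Of the 6 members tested 0 were called, against 14.8% of all genes, 2 had an unadjusted p under 0.05 (Reg1 and Reg3b) and DESeq2 called 0. The log2 fold change was 1.78 (SE 0.78, adjusted p = 0.124) for Reg1 and 3.36 (SE 1.20, adjusted p = 0.0574) for Reg3b. Without the filter, with 7.06% of genes called and 5.16% as higher, Cela3b, Reg1 and Reg3b were called as higher. For the difference of the effects of IL-1β with and without butyrate, 0 of 6 members were called by edgeR and 0 by DESeq2, and 0.0968% of all genes were called. The member with an unadjusted p under 0.05, 1 of 6, was Cpb1, at -1.83 (SE 0.67, adjusted p = 0.439). The fold change with IL-1β was therefore not shown to depend on butyrate for any member.

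**Figure D3:**
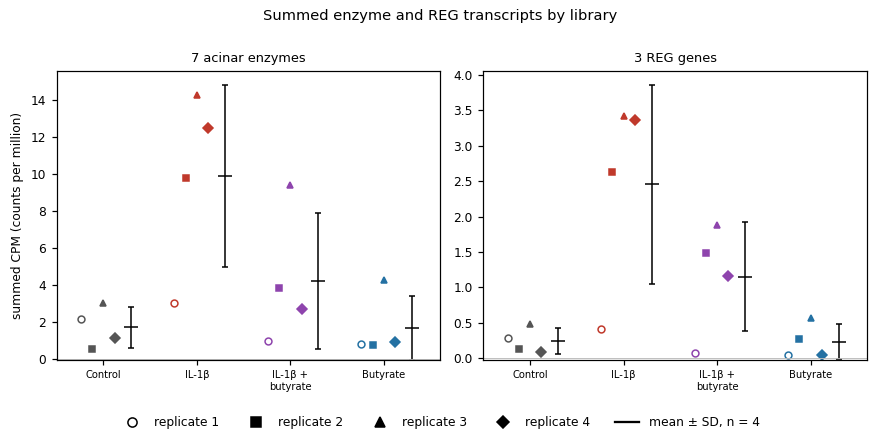
Summed CPM of the 7 enzymes (left) and the 3 REG genes (right) in each library, with the replicate number as the symbol and mean ± SD. Replicates 2 to 4 with IL-1β are highest in both panels, at 9.83 to 14.3 CPM for the enzymes and 2.63 to 3.42 CPM for the REG genes, and replicate 3 is the highest with both additions at 9.42 and 1.88 CPM.

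The members varied together from library to library. Ranked within a condition, replicate 3 was the highest for 9 of 10 transcripts with both additions and 9 of 10 with butyrate. In controls it was so for 6 of 10 and with IL-1β for 4 of 10. Ties at 0 aside, replicate 1 was the lowest for 8 of 10 with both additions and 10 of 10 with IL-1β. It was the lowest for 2 of 10 with butyrate and 0 of 10 in controls. Replicate numbers were not stated to mark shared islet pools. After the mean of each condition was removed, Pearson correlations of log2 CPM over the 16 libraries had a median of 0.70 over the 45 pairs of members. The highest was 0.90, between Ctrb1 and Prss2, and the 3 pairs of REG genes lay between 0.68 and 0.87. Pairs that mix a REG gene and an enzyme had a median of 0.73, and pairs of enzymes 0.65. The 9 pairs with Pnlip were between 0.23 and 0.51. All values share the libraries and their low counts, and no test was made of them.

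Among 12683 other genes with an average log2 CPM of at least 1, the profile most like the mean of the 7 enzymes over the 16 libraries was that of Zfp354b (Pearson r = 0.872), followed by Fkbp14, B230217C12Rik, Naglu and Traf4 (0.831 to 0.808). For Reg1 they were Basp1 (0.912), Pparg (0.897) and Gm45805 (0.89), for Reg2 Snx16, Cds1 and Pcdhb18 (0.822 to 0.808), and for Reg3b Cds1 (0.901), Chid1 (0.9) and Pcdhb17 (0.899). The limit on the level left out most other acinar genes. Their mean levels differed far less between conditions, as in Basp1, at 10.1 CPM in controls and 16 CPM with IL-1β.

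Other products of acinar cells were examined as a list of 31 genes. Of these, 8 passed the filter and 0 were called with IL-1β by edgeR, against 17.8% of all genes tested. The median log2 fold change of the 8 was 0.44, against -0.03 over all genes tested. At an unadjusted p under 0.05 there were 5, and DESeq2 called 2 of 12, Rnase1 as higher and Cela1 as lower. DESeq2 called 15.6% of all 20865 genes it tested in this comparison. The 3 largest estimates in the edgeR fit, named after their values were seen, were 2.35 for 2210010C04Rik (SE 0.92, adjusted p = 0.0798), 2.28 for Try5, a trypsinogen (SE 0.80, adjusted p = 0.0538), and 1.39 for Pnliprp1, a relative of pancreatic lipase (SE 0.67, adjusted p = 0.159). Try5 was at 0.7, 0.167, 0.860 and 0.214 CPM in controls and at 0.465, 2.14, 4.61 and 2.06 CPM with IL-1β, replicate 1 again being the lowest. Cela1, another elastase gene, had a mean of 22.0 ± 4.8 CPM (SD, n = 4) in controls, 14.5 ± 2.0 CPM with IL-1β, 15.1 ± 3.0 CPM with butyrate and 8.06 ± 1.4 CPM with both. It fell with both additions against IL-1β (-0.83, SE 0.19, adjusted p = 0.00458) and against control (-1.44, SE 0.18, adjusted p = 1.76e-05).

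Amylase transcripts of the pancreatic type were all but absent, since Amy2a1, Amy2a2, Amy2a3 and Amy2a4 had 0 counts in all 16 libraries and Amy2a5 and Amy2b at most 3 in any. Ctrc and Gp2, which are on the same list and are not amylase genes, also had at most 3 counts in any library. The Amy2a genes are near-identical copies, whose reads a count of uniquely placed reads can lose. The 6 acinar transcription factors on the list included Bhlha15, which was lower with IL-1β (log2 fold change -0.44, SE 0.05, adjusted p = 1.32e-07). It was the only member of that list called in this comparison, of 5 tested, where 17.8% of all genes were called. Bhlha15 is also active in other secretory cells.

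The other REG genes (Reg3a, Reg3d, Reg3g and Reg4) had 0 to 7 counts per library, and 0 of the 4 passed the filter. In the list of the proposed REG receptor and the STAT3 route, 10 genes were tested, of which 3 rose with IL-1β and 2 fell. In that comparison 11.2% of all genes were called as higher and 6.59% as lower. Stat3 itself rose by 1.1 (SE 0.05, adjusted p = 1.04e-15), Socs3 by 1.70 (SE 0.08, adjusted p = 1.26e-15) and Il10rb, a subunit of the receptor for IL-22, by 0.69 (SE 0.08, adjusted p = 3.35e-07). Lifr and Il6st, subunits of the receptors of the IL-6 family, fell by 0.41 (adjusted p = 2.05e-06) and 0.23 (adjusted p = 0.000567). With both additions against IL-1β, 1 of these genes rose (Socs3, 0.36, SE 0.07, adjusted p = 0.000148) and 3 fell (Il10rb, Jak2 and Pias3). The shares of all genes called there were 8.41% as higher and 11.1% as lower. With butyrate alone against control, Stat3 and Socs3 were the 2 of this list that rose. The 4 of it that fell were Il6ra, Jak2, Pias3 and Extl3, the last by 0.17 on the log2 scale (SE 0.05, adjusted p = 0.00921). Butyrate alone gave calls for 8.53% of all genes as higher and 11.4% as lower.

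**Figure D4:**
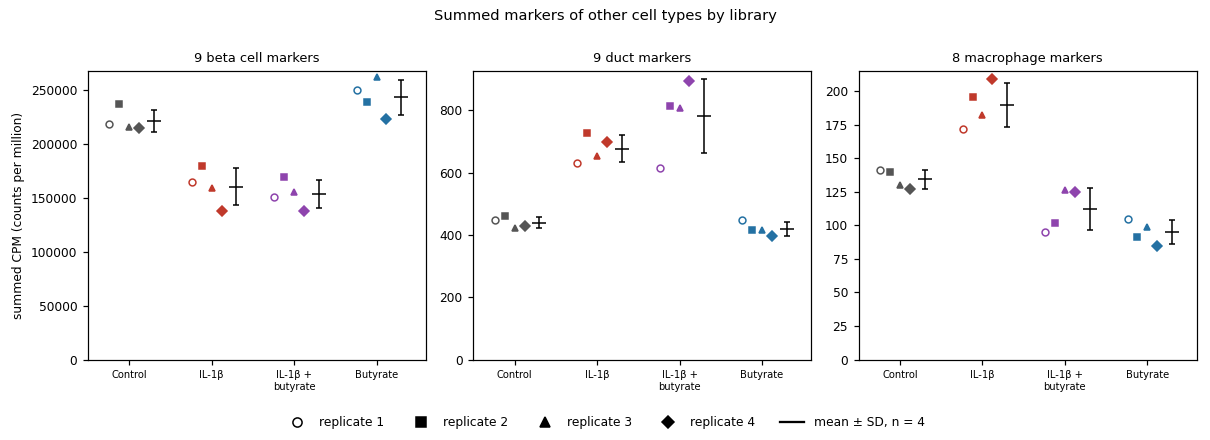
Summed CPM of 9 beta cell, 9 duct and 8 macrophage markers in each library, with the replicate number as the symbol and mean ± SD. With IL-1β the macrophage sum is 172 to 209 CPM, above the 127 to 141 CPM of controls, and the duct sum is 631 to 726 CPM, above 421 to 460 CPM, while C1qa is most of the macrophage sum in controls and Spp1 is most of the difference in the duct sum with both additions.

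Markers of other cell types moved with IL-1β against control, where 11.2% of all genes were called as higher and 6.59% as lower. With IL-1β, 7 of 8 macrophage markers were higher and 1, C1qa, was lower. Their summed level was 172 to 209 CPM, against 127 to 141 CPM in controls, 95.1 to 126 CPM with both additions and 84.7 to 105 CPM with butyrate. C1qa made up most of the sum in controls, at a mean of 111 CPM. The other 7 summed to 81.2 to 142 CPM with IL-1β, 16.7 to 27.7 CPM in controls, 36.8 to 80.3 CPM with both additions and 13.5 to 23.0 CPM with butyrate. With both additions against control 5 of the 8 were higher and 1 lower, against 15.8% and 14.8% of all genes. Of 8 duct markers tested 4 were higher and 0 lower by edgeR, namely Krt7, Tspan8, Muc1 and Spp1, of which Spp1 differed most (log2 fold change 3.74, SE 0.38, adjusted p = 7.44e-06) and is also a gene of macrophages. The duct markers had sums of 631 to 726 CPM with IL-1β, 421 to 460 CPM in controls, 613 to 894 CPM with both additions and 396 to 449 CPM with butyrate. Without Spp1, which had a mean of 11.9 CPM in controls, 158 CPM with IL-1β and 348 CPM with both, they were 483 to 566 CPM with IL-1β, 406 to 448 CPM in controls and 421 to 454 CPM with both additions. Beta cell markers summed to 138000 to 180000 CPM with IL-1β and 215000 to 237000 CPM in controls, with 7 of 9 lower and 1, Iapp, higher. The part of these shifts in the values of the enzymes and REG genes was not tested. Within the IL-1β condition, replicate 1 had the lowest macrophage and duct sums (172 and 631 CPM), and the beta cell sum was lowest in replicate 4. Without Spp1 the duct sum of replicate 1 was not the lowest, at 535 CPM against 566, 483 and 490 CPM in replicates 2 to 4.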

How the data were processed

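The 10 genes and the lists were chosen with earlier results of these data known. The authors mapped single-end reads of total RNA libraries to GRCm38 (mm10) with STAR 2.5.3a and deposited raw read counts per Ensembl gene, whole numbers without normalization. The counter, the annotation release and the strand setting are not given in the sources used here. The 16 columns were matched to the conditions by the sample titles. Symbols, positions and exon lengths came from GENCODE M21, where 52489 of 52636 identifiers were found. Without a stated strand setting, overlapping genes on opposite strands cannot be told apart.

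The main test used edgeR 4.0.16 in R 4.3.3. Genes with few counts were dropped by filterByExpr, which left 18587, and TMM-scaled counts were fitted with 1 robust quasi-likelihood model of the 4 conditions over 16 libraries. A call needed a p below 0.01 after Benjamini-Hochberg adjustment over all genes tested, the threshold the study states. SE is the absolute log2 fold change divided by the square root of F. Members below the filter were taken from the same fit without the filter (42076 genes). Intervals of ratios of summed counts are exact and conditional on the total, at 95%. Depth was 18635943 to 25955943 counts per library. Reads carried no molecular identifiers, so intervals and floors cover counting error only. Libraries of a condition differed by more than counting error (chi-square per gene 1.72 to 13.5). The labels do not state that replicates are separate animals, and p-values measure the spread between these pooled islet samples. All 10 members are named. From each list at most 4 genes were named, those called in a comparison with the largest mean CPM, and those with at most 3 counts in every library. Of these, 1 gene is not reported here. For likeness 5 genes were named for the mean of the enzymes and 3 for each REG gene, on log2 CPM with a prior count of 2. Socs3 and Stat3 by library, the 3 acinar genes with the largest estimates, and Rnase1, Socs3, Il10rb, Jak2, Pias3 and Extl3, which this rule does not name, were chosen after their values were seen. The alternatives were DESeq2 1.42.0, library size as the scaling, no filter, a threshold of 0.05, a replicate block, only the 2 conditions compared, and leaving out libraries. The scripts were tested on simulated data.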

Additional observations from a re-analysis of the deposited data

Results flagged for a closer look

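In 10 of 48 sets of 4 libraries examined, 1 library stood far from the other 3, measured as its gap to the nearest library over the range of the 4. For normally distributed values chance gives this in about 1 set of 20. These are low counts with ties at 0, to which that rate does not apply, and the sets share libraries. Butyrate replicate 3 was the high one for Cpa1 (0.909, 0.47 CPM against 0.043 CPM in the next library), Cpb1 (0.887, 0.679 against 0.344 CPM), Cela3b (0.883, 0.105 against 0.0502 CPM), Ctrb1 (0.932, 1.99 against 0.301 CPM) and Reg3b (1.0, 0.157 against 0 CPM), and for the 7 enzymes summed (0.946, 4.28 against 0.946 CPM). With both additions, replicate 3 was high for Cela3b (0.888, 1.01 against 0.284 CPM) and replicate 1 low for Reg1 (0.864, 0.0812 against 0.552 CPM). For Reg3b, control replicate 3 was high (1.0, 0.143 against 0 CPM) and IL-1β replicate 1 low (0.91, 0.0517 against 0.758 CPM). For Reg3b in control and butyrate libraries the gap is 3 counts against 0, which is at the floor of detection.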

How the results depend on the processing

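With IL-1β against control, 3 members were called, and the number was 5 without IL-1β replicate 1, without replicate 1 of both additions or without the 4 libraries numbered 1, and 0 without those numbered 2 or 4. Of all genes, 17.1%, 17.5%, 17.5%, 12.9% and 12.5% were called in these fits, in that order. Leaving out 1 library gave 2 to 5 members, where 14.5% to 17.6% of all genes were called. Leaving out 1 number gave 0 to 5, where 11.8% to 17.5% were. With only the 2 conditions compared, 1 of 2 members tested was called, and 16.5% of all genes. For both additions against IL-1β, where 0 were called, the number was 2 without the filter or at a threshold of 0.05, and 0 to 2 on leaving out libraries, with 2 without IL-1β replicate 1 and 1 without replicate 3 of both additions. Of all genes, 9.3%, 30.1%, 17.2% and 16.4% were called in these settings, in that order. Both additions against control (0 called) gave 3 without the filter, 1 with DESeq2, 1 at 0.05, and 0 to 3 on leaving out libraries, the 3 without those numbered 1 and 1 without replicate 1 of both additions alone. The shares of all genes called were 13.6%, 24.4%, 40.0%, 27.5% and 27.7% in that order. Both additions against butyrate (0 called) gave 3 without the filter and 0 to 2 on leaving out libraries, 2 without those numbered 1 and 1 without replicate 1 of both additions alone. There the shares of all genes called were 7.06%, 13.7% and 13.2%. Butyrate against control and the difference of the effects stayed at 0 in all alternatives run. For single members, 953 of 1018 values kept their side of the threshold, 25 of them uncalled values of opposite sign, 45 were called in addition, 20 lost the call, and 0 reversed a call. The ratio of mean summed enzyme CPM with IL-1β over control was 5.71 with the 7 enzymes and 3.7 without Ctrb1 (chosen after seeing the data). The causes were not tested. Counts of 0 to 30 limit most of these values.

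The replicate numbers are not stated to pair libraries. Correlations of deviations between same-numbered libraries were 0.053 to 0.397, over 0.1 in 17 of 24 pairs, and 14 of 16 libraries were closest to their own number. With the number as a replicate block, the calls were 5 with IL-1β against control (Cpb1, Ctrb1, Prss2, Reg1 and Reg3b higher, with 24.4% of all genes called), 3 with both additions against IL-1β (Cpb1, Ctrb1 and Reg1 lower, 26.8%), 1 against control (Reg3b higher, 37.1%) and 1 against butyrate (Reg3b higher, 20.2%). The block without the filter (chosen after seeing the data) gave 8 (higher), 3 (lower), 5 (higher) and 5 (higher) of 10 members in the same order, with 10.4%, 11.5%, 15.7% and 8.72% of all genes called.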
